A study of Mus musculus with 6 samples.

Results

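The probe sets described here belong to genes whose own probe sets gave unlike answers. An Affymetrix probe set is a group of short probes against 1 stretch of a transcript, and 5219 of the 13215 gene symbols measured had at least 2 of them. For each probe set the mean of 3 scrambled shRNA arrays was taken from the mean of 3 Sox2 shRNA arrays, on the log2 scale. A gene was kept where its highest and its lowest such difference lay at least 1 apart, a gap called the spread below. That rule kept 807 genes, or 15.5% of those with at least 2 probe sets, and all of their 2567 probe sets, out of 22690 on the array. These genes were thus selected on the measured differences between the groups, and the values are given as a description and carry no test.

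The study compared 2 stable derivatives of mOS482, a mouse osteosarcoma line that came from a spontaneous tumour lacking Rb and p53. The first carried the hairpin named Sox2shRNA900 (A) against Sox2, a transcription factor that keeps embryonic and adult stem cells undifferentiated, and the second carried a scrambled hairpin. Both were selected with hygromycin in DMEM with fetal bovine serum, and 3 plates of each gave 1 array apiece, so that each hairpin is represented by 1 derived line and its replicates are plates. Labelled cRNA was made from total RNA with a 3′ IVT Express kit and hybridised to Affymetrix mouse genome 430A 2.0 arrays.

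Labelling for this kind of array starts at the poly(A) tail, and most probe sets were therefore designed close to a known 3′ end. A gene can nevertheless yield transcripts that end at different poly(A) sites, begin at different promoters or include different exons, and probe sets that fall on the parts not shared then report different transcripts. The suffix of a probe set name records what its probes match by design. A plain _at set matches 1 transcript, an _a_at set matches alternative transcripts of 1 gene, an _s_at set shares its probes with other sequences, and an _x_at set holds some probes that resemble other sequences. Probes can also lie on the strand opposite to the gene, or respond to a related sequence, or give a signal near background.

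Values are log2 and had been centred per probe set by the authors, near 0 in the scrambled arrays, and the level over background is therefore unknown. Each ± is the SE of limma with n = 3 arrays per group. Over all probe sets the SD was 0.73, 0.57 and 0.57 in Sox2 shRNA arrays 1 to 3, against 0.089 to 0.11 in the scrambled arrays. The single probe set of the targeted gene, Sox2 at chr3:34548919-34551380 on the plus strand, read 0.17, 0.055 and 0.58 in Sox2 shRNA arrays 1 to 3, against 0.069, -0.039 and -0.033 in scrambled arrays 1 to 3. It was not lower in the Sox2 shRNA arrays, where the difference was 0.27 ± 0.15, so directions below are those of the arrays labelled Sox2 shRNA. No source used here gives the genome build of these alignments. Probe sets for markers of other cells (Ptprc, Emr1 and Cd68 of leukocytes and macrophages, Krt8 and Epcam of epithelium, Cdh5 and Pecam1 of endothelium) differed by -0.19 to 0.49. Among markers of osteoblasts, Col1a1, the main collagen of bone, differed by 3.29 and 3.74 in its pair of probe sets and Alpl, the alkaline phosphatase, by 0.99. Sp7, Spp1 and Ibsp differed by -0.30 to 0.22. Runx2, a kept gene described below, differed by -1.19, 0.012 and 0.70 in its 3 probe sets. The part of other cells in the spreads was not tested.

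In a few of these genes the beginnings of the alignments could be set beside annotated start sites. In 7 genes the starts of the highest and the lowest probe set's alignments lay as far apart as a pair of RefSeq transcription starts, within 100 bases, and at least 500 bases apart. The 3 genes whose distances matched most closely are shown to set the alternative starts beside the values of their probe sets, and they were chosen after their values were seen. The windows are RefSeq promoters of assembly GRCm38.p6, 250 bases before to 50 bases after each start, in the direction of transcription, with motif matches in capitals. The motifs searched on both strands were the antioxidant response element TGACNNNGC, the E-box CACGTG, the SOX motif AACAAT and the CCAAT box, whose letters are CCAAT. Of 32851 mouse windows of this length, 12.4% held the first, 7.15% the second, 10.7% the SOX motif and 37.4% the CCAAT box. A match is a description of letters and not a site of binding. For Mxi1 the windows were chr19:53310256-53310555 and chr19:53329163-53329462 on the plus strand, for Txnrd1 chr10:82833701-82834000 and chr10:82858956-82859255 on the plus strand, and for Lmnb2 chr10:80918196-80918495 and chr10:80906363-80906662 on the minus strand.
Mxi1 upstream start: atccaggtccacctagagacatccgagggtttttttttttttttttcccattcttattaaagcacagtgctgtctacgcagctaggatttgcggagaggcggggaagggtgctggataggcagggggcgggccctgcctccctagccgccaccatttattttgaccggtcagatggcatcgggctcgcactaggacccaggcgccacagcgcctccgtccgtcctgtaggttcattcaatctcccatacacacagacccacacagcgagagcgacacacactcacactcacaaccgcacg
Mxi1 downstream start: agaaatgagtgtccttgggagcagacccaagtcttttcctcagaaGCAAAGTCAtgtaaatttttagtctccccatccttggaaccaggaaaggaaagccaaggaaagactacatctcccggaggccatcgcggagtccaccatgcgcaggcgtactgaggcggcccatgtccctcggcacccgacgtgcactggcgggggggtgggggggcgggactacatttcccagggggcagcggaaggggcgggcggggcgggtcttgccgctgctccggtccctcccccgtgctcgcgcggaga
Txnrd1 upstream start: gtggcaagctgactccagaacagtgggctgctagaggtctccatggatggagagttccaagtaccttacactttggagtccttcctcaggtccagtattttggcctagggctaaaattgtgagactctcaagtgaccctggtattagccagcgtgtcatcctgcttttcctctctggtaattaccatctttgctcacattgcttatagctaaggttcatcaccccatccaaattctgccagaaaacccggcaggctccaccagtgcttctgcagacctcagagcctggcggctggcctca
Txnrd1 downstream start: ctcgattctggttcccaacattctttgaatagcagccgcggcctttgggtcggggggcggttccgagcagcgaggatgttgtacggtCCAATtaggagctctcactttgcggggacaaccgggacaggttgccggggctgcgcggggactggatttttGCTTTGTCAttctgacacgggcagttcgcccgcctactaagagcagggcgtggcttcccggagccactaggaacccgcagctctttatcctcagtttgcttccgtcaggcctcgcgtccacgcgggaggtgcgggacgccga
Lmnb2 upstream start: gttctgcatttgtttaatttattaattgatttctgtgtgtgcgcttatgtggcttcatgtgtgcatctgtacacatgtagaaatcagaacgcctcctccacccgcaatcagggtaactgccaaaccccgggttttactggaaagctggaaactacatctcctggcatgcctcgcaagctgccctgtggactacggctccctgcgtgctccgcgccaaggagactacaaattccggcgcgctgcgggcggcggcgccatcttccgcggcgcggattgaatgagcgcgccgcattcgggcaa
Lmnb2 downstream start: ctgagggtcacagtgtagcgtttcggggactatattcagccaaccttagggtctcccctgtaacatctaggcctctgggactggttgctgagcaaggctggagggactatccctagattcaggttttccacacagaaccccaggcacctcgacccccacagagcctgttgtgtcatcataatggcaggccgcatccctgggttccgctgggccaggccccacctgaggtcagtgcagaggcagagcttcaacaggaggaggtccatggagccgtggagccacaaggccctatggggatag

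Mxi1 encodes a partner of MAX that opposes MYC. Its alignment starts lay 18890 bases apart and the RefSeq starts 18907 bases. Here and in the genes below, a probe set was assigned to a start by such distances alone. Where its probes lie is unknown, so its values need not report that start. The probe set assigned to the downstream start, 1450376_at, read -2.33, -1.11 and -1.27 on the Sox2 shRNA arrays, against -0.19, 0.0049 and 0.097 on the scrambled arrays. The difference was -1.54 ± 0.29. The probe set beginning upstream, 1425732_a_at, read 1.49, 0.15 and -0.011 on the Sox2 shRNA arrays, against -0.26, 0.0041 and 0.0051 on the scrambled arrays, a difference of 0.63 ± 0.36, so that it was high only in Sox2 shRNA array 1. The downstream window held 1 antioxidant response element and the upstream window none of the 4 motifs. Txnrd1, the cytosolic thioredoxin reductase, had starts 25229 bases apart in the alignments and 25255 bases apart in RefSeq. Its upstream probe set 1424486_a_at read 2.18, 1.27 and 1.19 on the Sox2 shRNA arrays, against 0.34, -0.66 and -0.13 on the scrambled arrays. The difference was 1.69 ± 0.32. Every Sox2 shRNA array lay above every scrambled one, and the groups did not overlap in 53.2% of 22626 probe sets on the array. The downstream Txnrd1 probe set 1421529_a_at differed by -0.31 ± 0.11, and the window assigned to it held 1 antioxidant response element and 1 CCAAT box. Both Txnrd1 alignments end at the same base. In Lmnb2, which encodes a lamin of the nuclear envelope, the distances were 11842 and 11833 bases. The upstream probe set 1448531_at was the lower one, at -2.11, -0.99 and -0.76 on the Sox2 shRNA arrays, against -0.064, 0 and 0.054 on the scrambled arrays, and the downstream 1451849_a_at differed by 0.0012 ± 0.11. The 3′ ends of the alignments also lay apart, by 1479 bases in Mxi1 and 1595 bases in Lmnb2. In both genes the probe set ending farther in the 3′ direction was the lower one. The parts of the start and of the 3′ end in these spreads were not tested. Over all the genes, 23.7% of the 641 kept genes with a RefSeq match had at least 2 annotated starts, and 23.1% of the other 3442 matched genes did.

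In 417 of the 807 genes 1 extreme lay within 0.3 of 0 and the other away from it. That other extreme was lower in the Sox2 shRNA arrays in 327 genes and higher in 90. Over the 807 genes the extreme farther from 0 was a lower one in 586 and a higher one in 221. The extremes fell on both sides of 0 in 575 genes, while every probe set was above 0 in 101 genes and below 0 in 131. In 111 genes 1 probe set was higher by at least 0.5 and another lower by at least 0.5, and in 0 genes did this reach 1 in both directions. The median spread was 1.26, against 0.45 over all genes with at least 2 probe sets, and it reached 1.5 in 198 genes, 2 in 52 genes and 3 in 9 genes. In 510 kept genes with at least 3 probe sets, the lowest stood alone in 252, the highest in 178, and the probe sets split otherwise in 80.

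**Figure D1:**
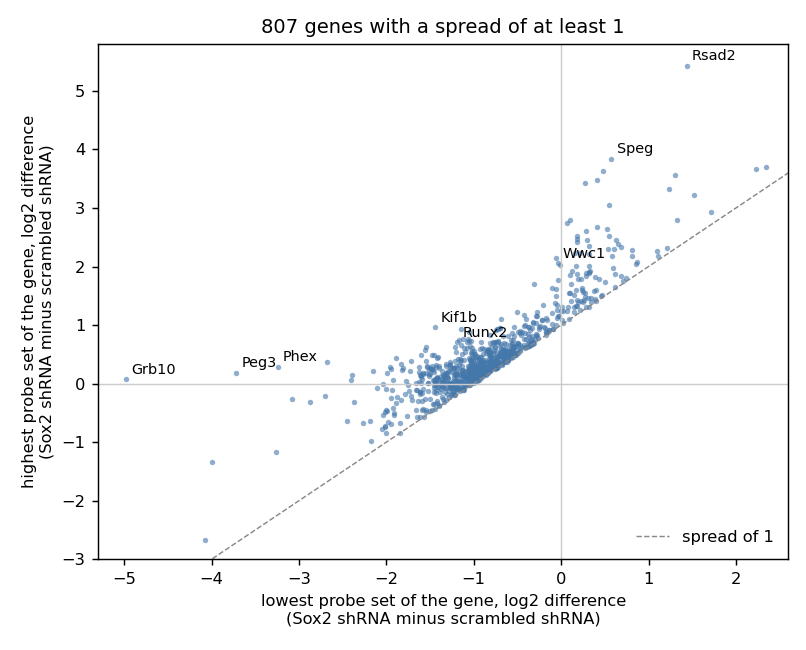
Each of 807 points is a gene with a spread of at least 1, with the log2 difference (Sox2 shRNA minus scrambled shRNA) of its lowest probe set on the horizontal axis and of its highest on the vertical axis. The dashed line is a spread of 1. Most points lie to the upper left, just above the line, where 575 genes have extremes on both sides of 0, and Grb10 lies farthest left at -4.98.

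Gene means were often small where a single probe set was not. A probe set differing by at least 1 in size was present in 486 of the 807 genes, and in 144 of these the mean over the gene's probe sets was under 0.5 in size. Limma with Benjamini-Hochberg adjustment over 22626 probe sets called 500 of the 2567 probe sets higher and 907 lower at 0.05, where 34.6% of all probe sets were called, 14.4% higher and 20.1% lower. Since the rule used this contrast, nothing is read from those counts. A probe set called higher and another called lower occurred together in 190 of the 5219 genes, or 3.64%, and 147 of the 190 were among the 807. That count rests on the scrambled arrays as well, since it was 71, 41 and 30 without scrambled array 1, 2 or 3.

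The spread was not equally wide on the 3 Sox2 shRNA arrays. A gap was taken between the highest and the lowest probe set of a gene, each measured from its mean over the scrambled arrays. The scrambled gaps of a gene therefore cancel out by construction. The median gap was 1.72, 1.06 and 1.08 in Sox2 shRNA arrays 1 to 3, against 0.094, -0.015 and -0.089 in the 3 scrambled arrays. The gap was at least 1 in all 3 Sox2 shRNA arrays in 300 genes and was widest in Sox2 shRNA array 1 in 635. Since the rule chose the genes by the mean of these gaps, a gap on the Sox2 shRNA arrays is no sign of stability. Without Sox2 shRNA array 1 the rule kept 528 genes and 1705 probe sets, and 491 of those genes, 93.0% of the 528 and 60.8% of the 807, were the same. Within groups the kept probe sets varied more on the Sox2 shRNA arrays (median SD 0.22) than on the scrambled arrays (0.099), and the other probe sets of genes with at least 2 gave 0.18 and 0.088.

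The 4 widest spreads were those of the imprinted genes Grb10 and Peg3, of the antiviral gene Rsad2 and of the bone gene Phex. Grb10 encodes an adaptor that restrains signalling by the insulin and IGF receptors. Its probe set 1425458_a_at read -4.54, -5.23 and -5.18 in Sox2 shRNA arrays 1 to 3, against -0.12, 0 and 0.11 in scrambled arrays 1 to 3, a difference of -4.98 ± 0.19. Another, 1425457_a_at, has the identical deposited alignment, chr11:11830510-11937397 on the minus strand, and read 0.034, 0.061 and 0.011 on the Sox2 shRNA arrays, against -0.020, -0.13 and 0.036 on the scrambled arrays, a difference of 0.072 ± 0.094. The Sox2 shRNA values of the first lay far below the scrambled arrays, whereas the second stayed near 0 on all 6 arrays. The pair disagreed 33.2-fold. The remaining probe set 1430164_a_at, whose alignment ends earlier along the gene, differed by -0.57 ± 0.13.

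Peg3, a zinc finger protein expressed from the paternal allele, showed 3 separate levels. The probe set at the far 3′ end, 1433924_at at chr7:6656602-6657644 on the minus strand, read -4.06, -3.79 and -3.36 on the Sox2 shRNA arrays, against -0.035, 0 and -0.011 on the scrambled arrays, a difference of -3.72 ± 0.17. The other pair of probe sets shared the alignment chr7:6657598-6683132 on the minus strand yet differed from each other. Of these, 1417355_at gave a difference of -1.73 ± 0.095 and 1417356_at one of 0.18 ± 0.11, with 0.20, 0.31 and 0.051 on the Sox2 shRNA arrays, against -0.054, -0.070 and 0.14 on the scrambled arrays.

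Phex is the osteoblast endopeptidase whose loss causes X-linked hypophosphataemia. Its 2 probe sets share the alignment chrX:153596617-153853218 on the minus strand. The first, 1421979_at, read -3.38, -3.25 and -3.12 on the Sox2 shRNA arrays, against 0.013, 0 and -0.032 on the scrambled arrays, a difference of -3.24 ± 0.10. The second, 1450445_at, read 0.73, 0.15 and -0.020 on the Sox2 shRNA arrays, against 0.055, 0 and -0.064 on the scrambled arrays and differed by 0.29 ± 0.19, with its widest value in Sox2 shRNA array 1. Rsad2, the interferon-induced antiviral protein viperin, was higher in all 3 of its probe sets, but by unlike amounts. The difference was 5.43 ± 0.16 in 1436058_at at the far 3′ end, 4.897 ± 0.14 in 1421009_at and 1.44 ± 0.14 in 1421008_at, and the last read 1.52, 1.696 and 1.21 on the Sox2 shRNA arrays, against 0.14, 0 and -0.019 on the scrambled arrays.

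**Figure D2:**
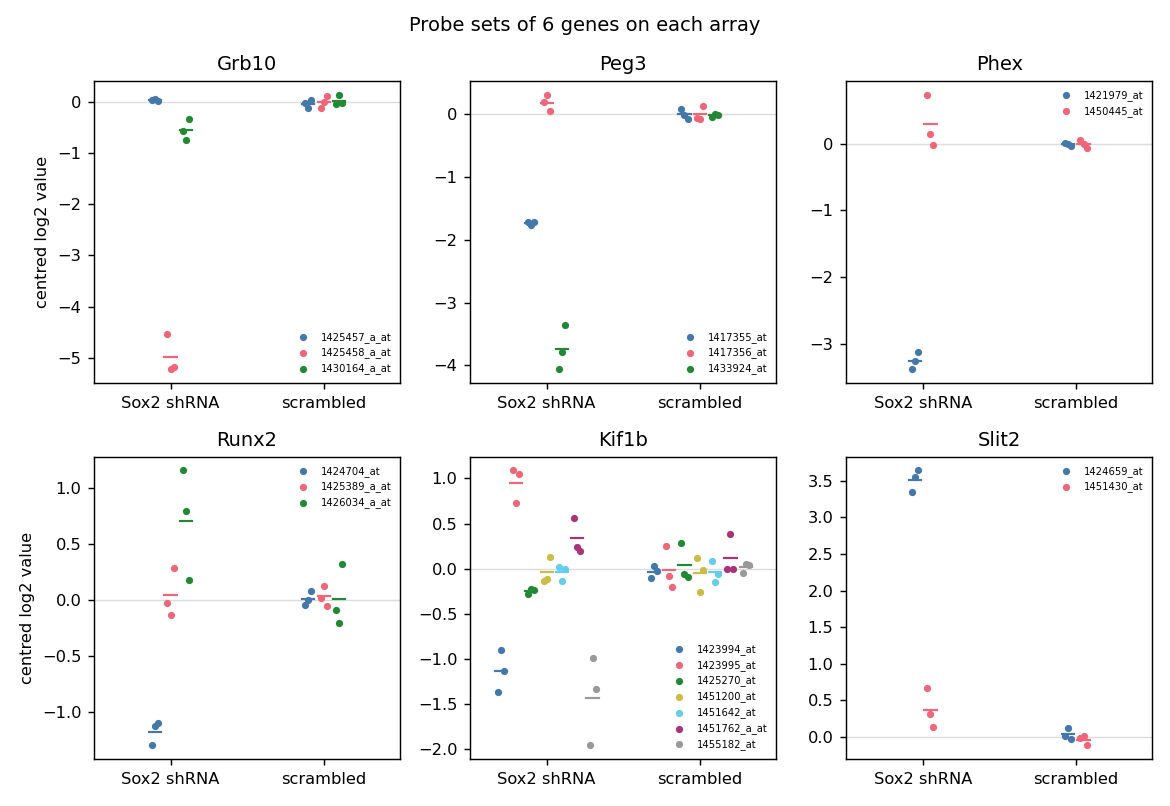
Centred log2 values of every probe set of Grb10, Peg3, Phex, Runx2, Kif1b and Slit2, with the 3 Sox2 shRNA arrays left of the 3 scrambled arrays in each panel. Each colour is 1 probe set, each point 1 array and each short line the mean of 3 arrays. All probe sets sit near 0 on the scrambled arrays and fan out on the Sox2 shRNA arrays, with a spread of 5.05 in Grb10.

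Others of the 20 widest spreads are grouped here by what the genes encode, a grouping made after the values were seen. Emilin1, an elastic fibre glycoprotein, differed by -3.08 ± 0.11 in 1416414_at, which read -3.14, -2.89 and -3.12 on the Sox2 shRNA arrays, against 0.034, 0 and 0.051 on the scrambled arrays, and by -0.26 ± 0.16 in 1431834_a_at, whose alignment ends 2143 bases earlier. Slit2, a guidance ligand of Robo receptors, was higher by 3.47 ± 0.11 in 1424659_at and by 0.41 ± 0.14 in 1451430_at, and both carry the alignment chr5:48376031-48697706 on the plus strand. The first read 3.34, 3.55 and 3.64 on the Sox2 shRNA arrays, against 0.014, 0.13 and -0.024 on the scrambled arrays, and the second 0.67, 0.31 and 0.14 on the Sox2 shRNA arrays, against -0.016, 0.019 and -0.11 on the scrambled arrays. Sdc3, a heparan sulphate proteoglycan, gave -2.68 ± 0.16 in 1450027_at and 0.37 ± 0.18 in 1420853_at with the same alignment. Hs6st2, a heparan sulphate sulfotransferase, gave 2.7995 ± 0.25 in 1450047_at and 0.17 and 0.10 in its other probe sets, again with 1 shared alignment. Tgfbi, a matrix protein induced by TGF-beta, was lower in all 4 of its probe sets, over differences of -3.998 to -1.34.

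In Acta2, Speg, Lpl, Cryab and Dbn1 every probe set lay above 0, by unlike amounts. Acta2, smooth muscle actin, read 2.88, 2.69 and 2.76 on the Sox2 shRNA arrays, against 0.22, 0 and -0.13 on the scrambled arrays in 1416454_s_at, a difference of 2.75 ± 0.12, but -0.042, 0.28 and -0.021 on the Sox2 shRNA arrays, against 0.033, 0.068 and -0.068 on the scrambled arrays in 1456658_at, a difference of 0.063 ± 0.12. The first is an _s_at set and aligns farther in the 3′ direction by 593 bases. Speg, a muscle kinase whose locus also gives a short smooth muscle form, was higher by 3.84 ± 0.13 in 1448664_a_at, aligned to the short interval chr1:75397584-75401139 on the plus strand, and by 0.58 ± 0.27 in 1451886_at, aligned to chr1:75371871-75428845 on the plus strand. Another probe set on the short interval, 1417305_at, gave 1.02 ± 0.11, so that the interval alone did not separate the values. Lpl, the lipase that releases fatty acids from lipoproteins, gave 3.63 ± 0.13 in 1415904_at and 0.48 ± 0.21 in 1431056_a_at, which ends 516 bases farther along. Cryab, a small heat shock protein, gave 3.42, 1.596 and 0.28 in 3 probe sets whose alignments end close together. Dbn1, the actin-binding protein drebrin, gave 3.06 and 0.55.

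In Mef2c, Stk39, Usp9x and Zwint the extreme farther from 0 was a lower one. Mef2c, a transcription factor of muscle, was lower in all 5 of its probe sets, over differences of -2.87 to -0.31, and these 2 share an alignment. Stk39, a kinase that acts on ion cotransporters, gave -2.39 ± 0.43 and -1.98 ± 0.18 in the probe sets aligned to chr2:68048501-68310055 on the minus strand, and 0.14 ± 0.096 in 1431434_at, whose alignment ends 52346 bases earlier. Usp9x, an X-linked deubiquitinase, had 4 probe sets between -2.404 and -1.42 and 3 between -0.10 and 0.070. Zwint, a kinetochore protein, had 6 probe sets spread over -2.15 to 0.21, the 2 at the ends of that range finishing within 6 bases of each other.

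In the genes that disagreed most evenly, 1 probe set was higher and another lower by similar amounts. Kif1b, a kinesin motor, gave -1.44 ± 0.22 in 1455182_at, which read -1.96, -0.99 and -1.33 on the Sox2 shRNA arrays, against -0.046, 0.051 and 0.043 on the scrambled arrays. It was higher in 1423995_at, which read 1.09, 0.72 and 1.05 on the Sox2 shRNA arrays, against 0.25, -0.077 and -0.20 on the scrambled arrays, a difference of 0.96 ± 0.15. Yet another probe set, 1423994_at, has the alignment of 1423995_at, chr4:148550427-148681740 on the minus strand, and gave -1.101 ± 0.13. Il13ra1, a receptor chain for interleukin 13, gave 0.93 ± 0.11 in 1427164_at and -1.14 ± 0.23 in 1454783_at, which lies 882 bases farther in the 3′ direction. Ugcg, which makes glucosylceramide, gave 0.88 ± 0.24 in 1421269_at and -1.06 ± 0.25 in 1435133_at, 1335 bases farther. Spry2, a feedback inhibitor of receptor tyrosine kinase signalling, gave 0.74 ± 0.44 and -1.05 ± 0.14. The higher Spry2 probe set read 1.898, 0.35 and -0.083 on the Sox2 shRNA arrays, against 0.062, -0.063 and -0.042 on the scrambled arrays, so that its difference came from array 1 above all. Smad4, the shared mediator of TGF-beta and BMP signals, had a spread of 1.67 over probe sets with 1 alignment, which was 1.03 without Sox2 shRNA array 1. Tnrc6a, an Argonaute partner in microRNA silencing, had 8 probe sets spread from -0.75 to 0.91.

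The higher probe set of several evenly opposed genes was an _x_at set on a short alignment. In Exosc4, an RNA exosome subunit, 1437712_x_at read 1.18, 0.68 and 0.63 on the Sox2 shRNA arrays, against 0.12, 0.086 and -0.21 on the scrambled arrays, a difference of 0.83 ± 0.17, and 1460679_at gave -0.81 ± 0.099. The same form held in Dhx32, a helicase of the DEAH family, with 0.75 ± 0.21 in 1438013_x_at and -1.07 ± 0.28 in 1420427_a_at. In Herpud2 the values were 0.75 ± 0.17 in 1439424_x_at and -1.12 ± 0.18 in 1415981_at, and in Cux1, a homeobox transcription factor, 0.75 ± 0.15 in 1437686_x_at and -1.17 ± 0.26 in 1425611_a_at. Without _s_at and _x_at probe sets the spread was 0.87 in Exosc4, 0.998 in Herpud2 and 1.23 in Cux1. Over the 111 genes opposed by at least 0.5 both ways, the highest probe set was an _x_at set in 19 and the lowest in 1.

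Over all 807 genes the suffixes of the kept probe sets can be set beside those of the other 4412 genes. They were _at in 58.9% against 62.4% of the other genes' probe sets, _a_at in 21.1% against 20.3%, _s_at in 8.84% against 8.17% and _x_at in 11.2% against 9.197%. The suffixes differed by side, however. An _x_at set was the highest of its gene 104 times and the lowest 16 times, whereas an _at set was the highest 483 times and the lowest 576 times. An _s_at set was the extreme farther from 0 in 73 genes and the nearer one in 45. The median difference of the kept probe sets was 0.17 for _x_at, -0.11 for _at, -0.095 for _a_at and -0.29 for _s_at. In the other genes the medians were 0.11, 0.069, 0.054 and 0.022 in the same order, so that _x_at was highest and _s_at lowest there too. Neither extreme was an _s_at or _x_at set in 582 genes, 1 was in 212 and both were in 13. Leaving out every _s_at and _x_at set kept 621 of the 807 genes, and could add none, since removing probe sets cannot widen a spread.

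Position along the gene could be ordered in 322 genes, whose extremes lay on 1 strand with alignments ending at least 100 bases apart. In these the extreme with the more distal 3′ end was the lower one in 236 genes, or 73.3%, and the higher one in 86, or 26.7%. Among the 1441 other genes ordered by the same rule, the more distal probe set was the lower one in 61.1%. The distal probe set had a median difference of -0.76 in the 322 genes and the proximal one 0.23, while in the other genes the medians were 0.037 and 0.14. The distal set was also the one farther from 0 in 70.5% of the 322 genes, against 55.6% of the others. This differed by direction. Where the extreme farther from 0 was a lower one, in 237 genes, it was the distal set in 79.7%, and where it was a higher one, in 85 genes, it was the distal set in 44.7%. In those 85 genes the distal set was the lower of the extremes in 55.3%. These shares have no test, since the same contrast chose the genes. Without Sox2 shRNA array 1 the distal probe set was the higher one in 27.6% of 232 genes.

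The share with the distal probe set lower was smallest in the kept genes whose ends were closest, a difference that was not tested. With ends 100 to 500 bases apart the distal probe set was the lower one in 58.1% of 43 kept genes, against 58.5% of 171 other genes. It was lower in 76.5% of 98 kept genes at 500 to 2000 bases, against 56.2% of 530 others, and in 77.2% of 92 at 2000 to 10000 bases, against 66.6% of 431. Beyond 10000 bases the shares were 73.0% of 89 and 63.4% of 309. Emilin1, Peg3, Stk39, Il13ra1, Ugcg and Spry2 were among the genes with the distal probe set lower, and Rsad2, Acta2, Kif1b and Dhx32 among those with it higher.

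**Figure D3:**
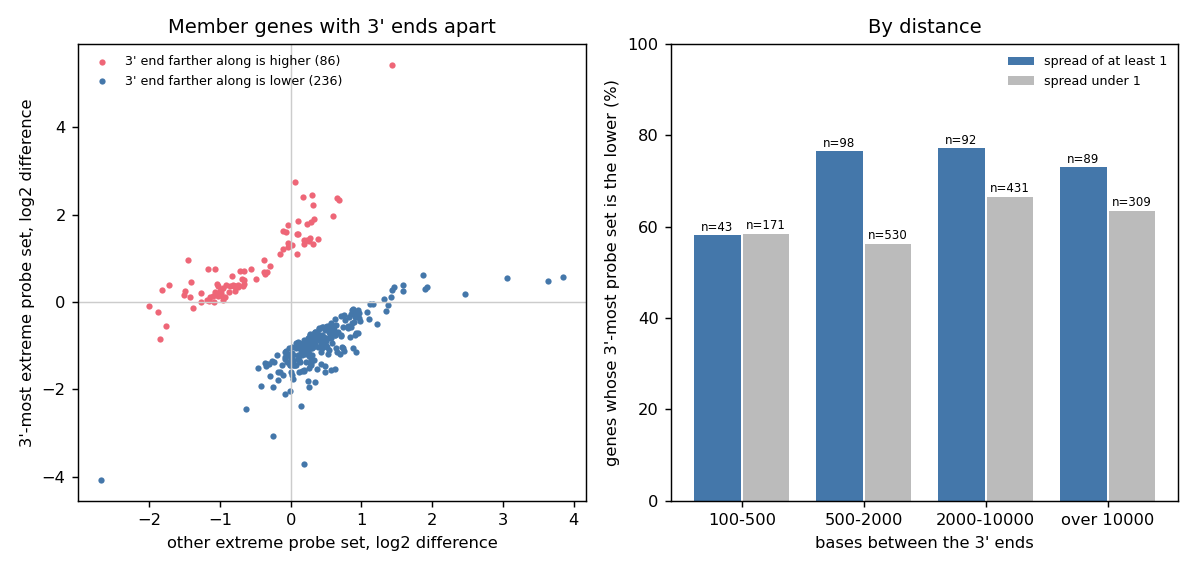
Left, the log2 difference (Sox2 shRNA minus scrambled shRNA) of the more distal extreme probe set against that of the other extreme in 322 genes, with 236 below the line of equality in blue and 86 above it in red. Right, bars from 0 give the percentage of genes whose more distal probe set was the lower one, by the number of bases between the 3′ ends, for genes with a spread of at least 1 (blue) and under 1 (grey), with the number of genes above each bar.

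The array's own controls also report position, since 4 transcripts carry control probe sets at their 3′ and 5′ ends. For Actb the 3′ minus 5′ value was 1.55, 0.65 and 0.58 in Sox2 shRNA arrays 1 to 3, against 0.32, -0.027 and -0.32 in scrambled arrays 1 to 3. For Gapdh it was 0.48, 0.24 and 0.18 on the Sox2 shRNA arrays, against 0.25, -0.032 and -0.18 on the scrambled arrays. For Pcx it was 0.86, 0.998 and 0.96 on the Sox2 shRNA arrays, against 0.033, -0.052 and 0.076 on the scrambled arrays. Pcx encodes pyruvate carboxylase and Tfrc the transferrin receptor. For Tfrc it was 0.46, 0.16 and 0.11 on the Sox2 shRNA arrays, against 0.0011, 0.079 and -0.10 on the scrambled arrays. In all 4 controls the 3′ end was therefore higher relative to the 5′ end on the Sox2 shRNA arrays, by group means. The amounts were 0.94 in Actb, 0.29 in Gapdh, 0.92 in Pcx and 0.25 in Tfrc. For Gapdh, Sox2 shRNA arrays 2 and 3 lay below scrambled array 1. Of the 322 ordered genes, whose extremes were picked by their values, the distal probe set was the higher one in 86 and the lower one in 236. The part of these 3′ to 5′ control differences in the spreads was not tested.

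**Figure D4:**
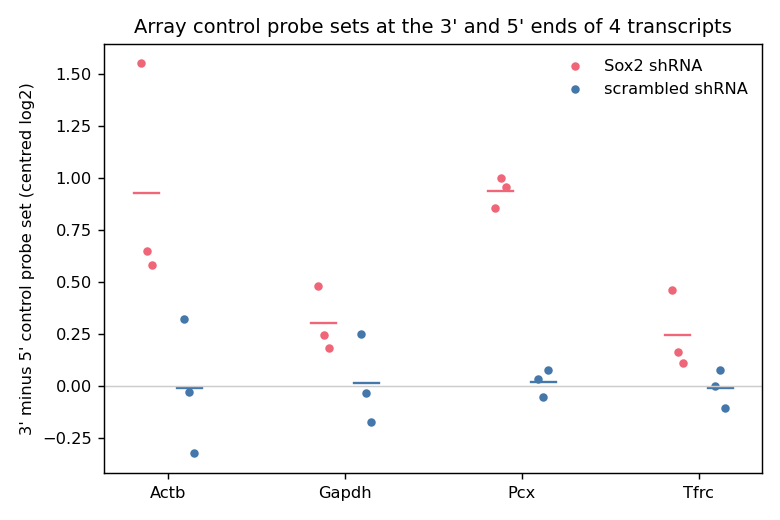
The 3′ minus 5′ control probe set value on the centred log2 scale for Actb, Gapdh, Pcx and Tfrc, with 3 Sox2 shRNA arrays (red) left of 3 scrambled arrays (blue) for each gene. Points are arrays and short lines are group means. The Sox2 shRNA arrays lie above 0 in all 4 genes, with array 1 at 1.55 in Actb.

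In 267 genes, 33.1% of the 807, the extremes carried the identical deposited alignment, so that position could not order them. This share was 42.2% in the other genes. Grb10, Phex, Slit2, Sdc3, Hs6st2, Mef2c, Wwc1 and Smad4 were of this kind, and the median spread of the 267 was 1.24, beside 1.302 for genes with ends apart. The deposited alignment is that of the whole design sequence, and where within it each probe set's probes lie was not analysed here. In a further 105 genes the ends were closer than 100 bases, and in 73 an extreme aligned to several places. Srsf3, a splicing factor, shows the last kind. Its 3 probe sets that align to 3 places, listed first on chromosome 15, differed by -1.59, -1.14 and -0.78, while the 3 aligned to 1 place on chromosome 17 differed by -0.17, -0.033 and 0.082. With only the singly aligned probe sets its spread was 0.26. The replication helicase gene Mcm7 and the ribosomal protein gene Rpl9 likewise held probe sets listed first on another chromosome, and their values are uncertain for that reason.

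Some genes held probe sets on both strands. Of the kept probe sets with a known RefSeq strand, 54 (2.83%) aligned opposite to their gene, and their median size of difference was 0.25. The 1853 on the gene's strand had a median size of 0.51, and 23.5% of them differed by at least 1 in size, against 4 of the 54 on the opposite strand, while 7.62% of all probe sets did. In the other genes with at least 2 probe sets the median sizes lay close together, at 0.21 for 161 probe sets on the opposite strand and 0.27 for 7844 on the gene's strand. A difference of at least 1 in size was found in 0 of those 161 and in 4.47% of those 7844. The kept genes were chosen for large differences. Hpgd, which inactivates prostaglandins, was read on both strands of chr8:58799148-58799840 on the plus strand. The gene's strand gave -2.699 ± 0.13 in 1419905_s_at, with -2.75, -2.67 and -2.79 on the Sox2 shRNA arrays, against 0.097, -0.31 and 0.10 on the scrambled arrays. The other strand gave -0.21 ± 0.17 in 1419906_at, with -0.072, 0.049 and -0.60 on the Sox2 shRNA arrays, against -0.043, -0.094 and 0.15 on the scrambled arrays. Without opposite-strand probe sets 787 of the 807 genes were kept.

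Spreads of at least 1 were more frequent where a gene had more probe sets. They were found in 9.15% of 3245 genes with 2 probe sets, 21.3% of 1252 with 3, 26.9% of 453 with 4, 41.5% of 164 with 5 and 50.5% of 105 with at least 6. Lasp1, an actin-binding LIM protein, had the most, with 9 probe sets over differences of -0.56 to 0.67. Tm2d2 had 8 over -0.91 to 0.30, and Mbp, which encodes a myelin protein, had 8 of which 7 lay between -0.060 and 0.31 and 1, 1425264_s_at, at 1.001 ± 0.16. Without _s_at and _x_at sets the spread was 0.29 in Tm2d2 and 0.26 in Mbp, and with singly aligned probe sets it was 0.52 in Lasp1. By chromosome the share was highest on X, with 45 of 170 genes or 26.5%. It was 22.4% on chromosome 10, 9.57% on chromosome 6 and 8.15% on chromosome 7. The number of probe sets per gene was not compared between chromosomes. The extreme farther from 0 was a lower one in 43 of the 45 genes on X, against 586 of all 807 kept genes.

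Proteins that choose poly(A) sites and exons were examined as lists, whose counts are given beside those of the whole array, where limma called 14.4% of probe sets higher and 20.1% lower and 15.5% of genes with at least 2 probe sets had a spread of at least 1. Those genes had 2.598 probe sets on average, and the share with such a spread increases with that number. Of 18 measured cleavage and polyadenylation factors with 39 probe sets, 3 probe sets were called higher and 11 lower by limma, and the median difference was -0.042, against 0.080 over all probe sets. These calls came to 35.9% of the probe sets, near the 34.6% of the whole array. Of the 11 with at least 2 probe sets, 2.91 on average, 4 had a spread of at least 1. Cstf2, which binds the GU-rich element behind the cleavage site, gave -1.63 ± 0.12 in 1419645_at and -0.30 ± 0.13 in 1419644_at with 1 alignment, chrX:130593729-130621361 on the plus strand. Pcf11, a cleavage and termination factor, gave -1.27 ± 0.17 in 1427160_at and -0.023 ± 0.11 in 1427159_at. Papola, the poly(A) polymerase, was higher by 0.96 ± 0.14 in its distal probe set 1455836_at, with 1.09, 0.89 and 0.94 on the Sox2 shRNA arrays, against 0.28, -0.10 and -0.14 on the scrambled arrays, and gave -0.37 to 0.17 in the others. Fip1l1, a subunit of the cleavage and polyadenylation specificity factor, gave -0.78 ± 0.11 in 1428280_at and 0.44 ± 0.17 in 1421222_at, which ends 6361 bases earlier.

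More probe sets of splicing regulators were called lower than higher. Of 37 measured with 108 probe sets, limma called 5 higher and 49 lower, or 4.63% and 45.4%, and the median was -0.33. Of the 27 with at least 2 probe sets 12 had a spread of at least 1, and these 27 genes had 3.63 probe sets on average, more than the 2.598 of all such genes. Srsf10, a splicing repressor, gave -1.92, -1.199, -0.95 and -0.49, all below 0. Each of these Srsf10 probe sets aligns to 2 places, and their values are uncertain for that reason. Elavl1, the HuR protein that binds AU-rich elements, was higher by 0.80 ± 0.16 in 1431037_a_at and gave -0.60 ± 0.13 in 1448151_at, which lies 827 bases farther in the 3′ direction. The first read 1.19, 0.67 and 0.67 on the Sox2 shRNA arrays, against 0.19, 0 and -0.076 on the scrambled arrays. The second read -0.84, -0.53 and -0.41 on the Sox2 shRNA arrays, against -0.079, 0.058 and 0.052 on the scrambled arrays. Neither overlapped between the groups, as was so for 53.2% of 22626 probe sets on the array. Hnrnpu, which binds nascent RNA, gave -1.37 ± 0.33 in 1450849_at, but -0.11 and 0.029 in the others with the same alignment. Khdrbs3, a STAR family RNA-binding protein with 1 probe set, was lower at -1.69 ± 0.10.

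An osteoblast regulator was also among the kept genes. Runx2, the master transcription factor of osteoblasts, had 3 probe sets with 3 unlike values. The first, 1424704_at at chr17:44740937-44873597 on the minus strand, read -1.3004, -1.13 and -1.105 on the Sox2 shRNA arrays, against -0.050, 0 and 0.077 on the scrambled arrays, a difference of -1.19 ± 0.10. The second, 1426034_a_at at chr17:44744479-44951530 on the minus strand, read 1.16, 0.79 and 0.18 on the Sox2 shRNA arrays, against -0.095, -0.20 and 0.32 on the scrambled arrays, a difference of 0.70 ± 0.25, and 1425389_a_at, whose alignment reaches farthest in the 3′ direction, gave 0.012 ± 0.13. Over the 22 measured osteoblast genes limma called 5 of 36 probe sets higher and 8 lower, and 3 of the 12 genes with at least 2 probe sets had a spread of at least 1. The calls were 13.9% higher and 22.2% lower, near the shares of the whole array.

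In the Hippo pathway, which restrains the coactivators YAP and TAZ, 10 of 53 probe sets were called higher and 13 lower, and Wwc1, Sav1 and Wwc2 were the 3 of 14 genes with a spread of at least 1. These shares, 18.9% higher, 24.5% lower and 21.4% of genes, stand beside 14.4%, 20.1% and 15.5% for the whole array, and nothing particular to the list is read from them. Wwc1, which activates the Hippo kinases with NF2, was higher by 2.06 ± 0.12 in 1420008_s_at and by 1.22 ± 0.18 in 1427261_at, and gave -0.041 ± 0.11 in 1420007_at. The first read 2.19, 2.08 and 1.91 on the Sox2 shRNA arrays, against 0.11, 0.048 and -0.15 on the scrambled arrays, and the last -0.13, 0.098 and -0.12 on the Sox2 shRNA arrays, against -0.088, 0.030 and 0.027 on the scrambled arrays, at the same alignment chr11:35651905-35652727 on the minus strand. The remaining one, 1420009_at, lies on the opposite strand and gave 0.39 ± 0.15. Without the _s_at set the spread of Wwc1 was 1.26, against 2.097 with it. Sav1, a scaffold of the kinases, gave -1.28 ± 0.16 in 1448204_at and -0.0017 ± 0.096 in 1416075_at with 1 alignment. Nf2 (spread 0.61, all 4 probe sets above 0) and Wwtr1, which encodes TAZ (spread 0.76, all 3 below 0), were outside the rule.

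A spread of at least 1 was found in 2 of 8 adipocyte genes and in 3 of 9 smooth muscle and cytoskeleton genes. Cd36, a fatty acid transporter, was lower at -1.22 ± 0.16, -0.66 ± 0.10 and -0.20 ± 0.11 in 3 probe sets with 1 alignment, and Pparg, the master regulator of adipocytes, had 1 probe set, at -0.68 ± 0.14. Vim, the intermediate filament of mesenchymal cells, gave -1.44, -0.71 and -0.43, and Vcl, which links actin to adhesions, -0.97 and 0.099. Limma called 4 of 29 adipocyte probe sets higher and 6 lower, and 13 of 33 smooth muscle and cytoskeleton probe sets higher and 8 lower. In the adipocyte genes these were 13.8% and 20.7%, near the 14.4% and 20.1% of the whole array. In the smooth muscle and cytoskeleton genes they were 39.4% and 24.2%.

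Of 76 probe sets of matrix and protease genes 27 were called higher and 18 lower, or 35.5% and 23.7%, and 4 of 21 genes had a spread of at least 1, or 19.0%. Bgn, the proteoglycan biglycan, was lower in all 3 of its probe sets at -4.08, -3.66 and -2.67. Its spread of 1.403 rests on the last, an _x_at set, and was 0.41 without it. Thbs1, an adhesive glycoprotein, gave 0.97 ± 0.14 in 1450377_at and -0.54 ± 0.25 in 1460302_at, and Timp3, a metalloproteinase inhibitor, gave -0.82 to 0.48, each with 1 alignment. Of 69 probe sets of growth factor receptor and signalling genes 16 were called higher and 5 lower, or 23.2% and 7.25%, with 5 of 23 genes kept, or 21.7%. Egfr, the EGF receptor, gave 1.502 ± 0.22 in 1424932_at and -0.062 ± 0.14 in 1451530_at with 1 alignment, chr11:16652270-16813907 on the plus strand. Acvr1, a BMP receptor, gave -1.103 ± 0.20, 0.011 ± 0.26 and, on the opposite strand, 0.22 ± 0.12. Vegfa, the endothelial growth factor, gave 0.82 ± 0.13 in 1451959_a_at and -0.33 ± 0.12 in 1420909_at, 8214 bases farther in the 3′ direction.

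The interferon list was called almost wholly higher, and the cell cycle list was called lower more often than higher. Over the whole array limma called 14.4% of probe sets higher and 20.1% lower, and 15.5% of genes had a spread of at least 1. Of 32 interferon response probe sets, limma called 30, or 93.75%, higher and 0 lower (also 0 at an unadjusted p under 0.05). Their median was 1.83, and 3 of 6 genes, or 50%, had a spread of at least 1. Eif2ak2, the kinase PKR, gave 2.18 and 1.11. Of 75 cell cycle and DNA replication probe sets 9, or 12%, were called higher and 42, or 56%, lower, with a median of -0.45. In that list 3 of 21 genes, or 14.3%, had a spread of at least 1, each with extremes on both sides of 0. Ccnd2, cyclin D2, gave 1.16 in an _x_at set and -0.040 to 0.54 in 6 others, and its spread of 1.202 was 0.78 without Sox2 shRNA array 1 and 0.58 without the _s_at and _x_at sets. Mcm3, a subunit of the replication helicase, gave -0.92 and 0.26 in probe sets with 1 alignment. Of pluripotency factors only Tbx3 was kept of 5 genes, with 1.93 ± 0.21 in 1448029_at and 0.12 ± 0.18 in 1439567_at on the other strand.

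The genes on either side of the threshold had like values. The 3 just inside were Rdx, Pvr and Rpl9, with spreads of 1.0003, 1.0004 and 1.0007, and the 3 just outside were Ccdc101, with 0.999, and Sumo3 and Tpm1, with 0.998. In Tpm1, a tropomyosin, the probe sets gave -0.89, -0.39 and 0.11. In Pvr, the poliovirus receptor, 5 probe sets lay between -0.17 and 0.17 and 1423904_a_at was at 0.83 ± 0.11. Without Sox2 shRNA array 1 the spread of Rpl9 was 0.59.

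Within groups, the highest and the lowest probe set of a gene varied together in some genes and oppositely in others. The correlation of their deviations from the group means over the 6 arrays had a median of -0.33 over the 807 genes, with quartiles of -0.72 and 0.24, and a median of 0.071 over the 4412 others, with quartiles of -0.47 and 0.57. On the Sox2 shRNA arrays alone it was -0.48 and 0.14, and on the scrambled arrays alone -0.11 and 0.024, where the quartiles of the 807 were -0.76 and 0.67. The rule chose the extremes by the same values, so nothing is read from these correlations. These are descriptions over few arrays that share depth and normalization, and Sox2 shRNA array 1, where the gap was widest in 635 genes, enters the first 2 pairs of values.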

How the data were processed

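The authors scanned 6 1-colour arrays and normalized them with RMA (GCOS 1.4 is also listed), per the submitters' processing notes. No source used here gives the RMA settings. The deposited values were taken as log2, since RMA returns log2, and the values themselves show that each probe set had been centred near the scrambled arrays. Both deposited tables were alike. Of 22690 probe sets, 64 array controls were left out of the fits, and 21556 others named 1 gene. Genes were formed by deposited symbol. Alignments are those deposited with the probe sets, of a build that no source used here gives. Current names and gene strands came from RefSeq by Entrez number, which matched 21181 probe sets.

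Differences are Sox2 shRNA minus scrambled shRNA. SEs and calls came from limma 3.58.1 (lmFit and eBayes, R 4.3.3) over 22626 probe sets and 6 arrays without covariates, with Benjamini-Hochberg adjustment at 0.05, and the script was tested on simulated data. Replicates are plates, so that p-values hold for these plates only. The number of arrays limits the precision. The 3′ end of a probe set is the end of its alignment in the direction of its strand. The members, lists and tests were chosen with earlier results of these data known.

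The genes named are Sox2, the 20 widest spreads, the 10 most evenly opposed, the 5 with the most probe sets, 8 genes of interest, up to 4 members of each of 11 lists by spread, 3 genes of each list of RNA processing factors by smallest adjusted p, 3 genes on either side of the threshold and 4 control transcripts. Not every gene of the rule is reported here. Mxi1, Txnrd1 and Lmnb2 were added after their values were seen. Alternatives left out each array, took the median of arrays, recentred the arrays, dropped _s_at and _x_at sets, updated symbols, required 1 alignment, moved the thresholds, and fitted the replicate number as a block or a variance trend. Chosen after seeing the data were dropping opposite-strand probe sets, ordering only genes with 2 probe sets or not on X, and correlating the scrambled arrays alone.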

Additional observations from a re-analysis of the deposited data

How the results depend on the processing

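Genes with a spread of at least 1 numbered 807 and ranged from 528 to 1014 when 1 array was left out, with 528 without Sox2 shRNA array 1, and their probe sets ranged from 1705 to 3207. A threshold of 0.8 kept 1284 genes and 3990 probe sets, and 1.5 kept 198 genes and 653 probe sets. The median of arrays kept 683 genes and singly aligned probe sets 709. Recentring shifts all probe sets of an array alike, so by construction it kept the same 807. Without 1 array, limma's calls ranged from 1570 to 4044 higher and 2918 to 4995 lower, and genes called both ways from 30 to 236, each lowest without scrambled array 3. At an adjusted p of 0.01 they were 1474, 2771 and 18. At an adjusted p of 0.05 together with a difference of at least 1 in size they were 623, 1094 and 0. Recentring gave 2684 higher and 4936 lower. The cause of these shifts was not tested. With the replicate number as a block, 3099 were called higher, 4473 lower and 193 genes both ways, which moved no count by over 1.5 times. Deviations of arrays with the same number correlated at 0.12, -0.022 and 0.17, so the numbers were not taken as pairs. The distal probe set was the higher one in 24.4% to 29.0% of ordered genes under every alternative run, of which recentring could not change the share. The within-group correlation was -0.21 when pooled over genes and -0.11 on the scrambled arrays alone. Signal over background is unknown here.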
